A study of Mus musculus with 12 samples.

Results

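Mouse embryonic fibroblasts (MEF) that lack the kinases LATS1 and LATS2 (double knockout, DKO) were compared with and without MGH-CP1 (CP1), a small-molecule inhibitor of the TEAD transcription factors. The comparison holds 6 of the 12 libraries of the study, namely the 4 DKO libraries that received CP1 at 1 µM and the 2 DKO libraries that received the solvent DMSO. Each day of treatment, 2 or 4, had 2 CP1 libraries and 1 DMSO library, and the other 6 libraries are wild-type (WT) fibroblasts under the same treatments and days. The cells came from embryos of day 13.5, were grown in medium with fetal bovine serum and were used between passages 4 and 10, and total RNA was sequenced. The labels do not give the number of embryos, cultures or clones behind the DKO cells, so p-values measure the spread between these libraries, which may be technical. Loss of the kinases also cannot be told apart from any other difference in origin between DKO and WT cells.

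LATS1 and LATS2 are the last kinases of the Hippo pathway. They phosphorylate the co-activators YAP and TAZ and so keep them out of the nucleus, and without them YAP and TAZ accumulate on TEAD proteins, which bind DNA and carry the complex to its target genes. TEAD proteins bear a palmitate in a central pocket, and CP1 occupies that pocket. In fibroblasts the YAP/TAZ-TEAD complex is known for driving matricellular genes, cytoskeletal genes and proliferation.

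The DNA element that TEAD proteins bind is known by its core, GGAATG, read as CATTCC on the opposite strand. Windows from 250 bases before to 50 bases after the start of a gene (RefSeq, GRCm38.p6, the assembly on which mm10 is based) held this core on either strand in 14.7% of all 32851 windows. The shares among tested genes were 14.4% of 2814 genes called lower under CP1, 15.1% of 2421 called higher and 14.7% of 5244 not called. Of the 16 Hippo and TEAD genes followed throughout, 13 had a window, and 11 of these (84.6%) held the core. Among the 11, Lats2, Yap1, Wwtr1, Tead3 and Vgll3 were not called under CP1. Tead2, called lower, and Lats1, called higher, held no core. Windows of Ankrd1, Ccn1, Amotl2 and Ajuba are shown because the transcripts of these TEAD target genes lead the results on the targets, with the core in capitals. The Ankrd1 window is chr19:36119795-36120094 on the minus strand, with cores starting 210 and 123 bases before the start. The Ccn1 window is chr3:145649936-145650235 on the minus strand, with a core 103 bases before the start. The Amotl2 window is chr9:102717554-102717853 on the plus strand, with a core 65 bases before the start, and the Ajuba window is chr14:54577612-54577911 on the minus strand, with cores 186 and 164 bases before it.
Ankrd1: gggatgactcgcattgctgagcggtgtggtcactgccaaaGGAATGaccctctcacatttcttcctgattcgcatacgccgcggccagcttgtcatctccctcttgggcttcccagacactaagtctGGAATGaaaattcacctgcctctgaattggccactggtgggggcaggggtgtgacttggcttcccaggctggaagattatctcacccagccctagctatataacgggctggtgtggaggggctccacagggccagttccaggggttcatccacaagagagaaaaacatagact
Ccn1: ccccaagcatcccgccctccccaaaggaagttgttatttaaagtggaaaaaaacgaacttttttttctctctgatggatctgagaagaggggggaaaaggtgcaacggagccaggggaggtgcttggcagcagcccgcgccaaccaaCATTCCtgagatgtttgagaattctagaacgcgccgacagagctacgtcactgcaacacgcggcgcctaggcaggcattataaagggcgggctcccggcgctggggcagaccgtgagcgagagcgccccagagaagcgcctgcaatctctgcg
Amotl2: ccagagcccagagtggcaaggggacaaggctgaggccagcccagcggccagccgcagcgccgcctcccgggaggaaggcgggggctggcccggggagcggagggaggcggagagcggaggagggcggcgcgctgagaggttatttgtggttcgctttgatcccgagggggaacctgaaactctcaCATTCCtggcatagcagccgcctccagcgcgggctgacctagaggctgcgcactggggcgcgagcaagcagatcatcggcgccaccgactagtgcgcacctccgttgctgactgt
Ajuba: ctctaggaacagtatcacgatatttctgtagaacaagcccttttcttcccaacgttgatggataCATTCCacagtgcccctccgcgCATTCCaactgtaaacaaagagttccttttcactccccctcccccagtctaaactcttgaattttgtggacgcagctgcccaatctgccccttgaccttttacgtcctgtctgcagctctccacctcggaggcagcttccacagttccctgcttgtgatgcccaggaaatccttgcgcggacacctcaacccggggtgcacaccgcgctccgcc
A match of these letters describes the window and was not tested as a binding site.

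The 6 DKO libraries held 16970834 to 22814827 counts. Levels are given in CPM, counts scaled to library totals that were adjusted by TMM, and 1 CPM is 17 to 23 reads. The 2 DMSO libraries, which also differ in day, had a correlation of log2 values over genes of 0.98 and an SD of their log2 difference of 0.611. CP1 libraries of 2 against 4 days had correlations of 0.9839 to 0.9872 and SDs of 0.442 to 0.495, and CP1 repeats of the same day had correlations of 0.9922 and 0.9936. In a principal component analysis the first component, with 69.9% of the variance, placed the CP1 libraries between -38.2 and -28.7 and the DMSO libraries at 85.1 (2 days) and 53.8 (4 days). The DMSO library of 2 days held 40.9 CPM of Xist, the long RNA of the inactive X chromosome, against 368.1 CPM in that of 4 days and 780.8 to 968 CPM under CP1. The share of long intergenic and antisense RNA was 0.295% and 0.396% in the DMSO libraries and 0.508% to 0.582% under CP1. The part of these differences in the results was not tested, and each result below was therefore read against both DMSO libraries.

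The label of the cells was checked on the deleted genes and on cell type markers. Lats1 stood at 14.3% and 22.1% of the mean of the WT DMSO libraries in DKO DMSO cells and at 31.2% to 35.6% under CP1, and Lats2 at 28.4% and 28.3% and at 26.3% to 31.1%. Counts over a whole gene can include exons that a deletion leaves in place. The summed level of 18 fibroblast markers was 10560 and 10100 CPM in DMSO and 13970 to 17410 CPM under CP1. Single fibroblast markers were missing, since Thy1 had 0 reads in both DMSO libraries and 4 to 22 reads under CP1, and Fap had 0 reads in DMSO. Macrophage markers summed to 11.6 to 17.1 CPM, with the defining gene Adgre1 at 0, and muscle markers to 5.81 to 9.07 CPM. Endothelial markers summed to 183.7 and 147.1 CPM in DMSO and 122.1 to 133.7 CPM under CP1, with Sox17 at 0. Epithelial markers summed to 17.7 and 17.6 CPM in DMSO and 3.68 to 17.7 CPM under CP1. Neural markers summed to 543.6 and 551.5 CPM in DMSO and 388.5 to 432.8 CPM under CP1, with Dcx at 0. Adipocyte markers summed to 155.4 and 132.2 CPM in DMSO and 169.9 to 179.4 CPM under CP1, cartilage and bone markers to 158.1 and 227.3 and to 237.0 to 297.6 CPM, and erythroid markers to at most 2.33 CPM. In bulk RNA fewer cells of a type and less RNA per cell cannot be told apart.

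CP1 changed a large part of the transcriptome of DKO cells. Of 14839 genes tested on the 6 libraries with day as a covariate, 3395 (22.9%) were higher and 3750 (25.3%) lower, together 48.2%, at an adjusted p below 0.05 (edgeR quasi-likelihood F-test, Benjamini-Hochberg adjusted, which also gave every adjusted p-value below unless named otherwise). The median size of a called change was 0.71 on the log2 scale. Changes of at least 2-fold were more often increases, 1614 against 631. TPM, a scale that divides by gene length and by the library sum, was fitted without TMM scaling. On TPM the median of all genes moved from 0.01 to 0.27 and increases made up 76.4% of the calls, where counts gave 47.5%. Changes are therefore read relative to the bulk of genes, and where the median of a pathway list described below changes sign on TPM, both medians are given. With nearly every second gene called, a list is compared with these shares of all genes. List counts on TPM compare with 5237 higher and 1616 lower of the 16181 genes tested on log2(TPM + 1). Wherever a list is counted, the median given is over its tested members only. A fit without 1 of the DMSO libraries holds no spread between DMSO libraries. Its counts of called genes are therefore not as firm as the others. In 27.3% of all tested genes every CP1 library was above both DMSO libraries, and in 31.5% every one was below. Absence of overlap is therefore common here, and the largest changes and the genes named by rule from lists were chosen for it.

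The canonical TEAD target genes fell on both days. Ankrd1 (ENSMUSG00000024803.9, mm10 chromosome 19, 36111961-36120099), which encodes a nuclear ankyrin-repeat cofactor of muscle and wound cells, stood at 17.4 and 13.9 CPM in CP1 libraries of 2 days, at 15.7 and 15.1 CPM in those of 4 days and at 47.6 and 49.0 CPM in DMSO at 2 and 4 days. The 4 CP1 libraries lay close together and far below both DMSO libraries, and the log2 fold change was -1.61 (SE 0.11, adjusted p = 4.6e-05). Ccn2, the gene of connective tissue growth factor, stood at 89.0, 84.6, 87.7 and 86.7 CPM under CP1 in the same order and at 169.7 and 192.5 CPM in DMSO (log2 fold change -1.03, SE 0.08, adjusted p = 9.4e-05). Here too every CP1 library was below both DMSO libraries.

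Ccn1, the gene of a sister matricellular protein, moved least of the canonical targets. It stood at 560.6, 539.2, 474.4 and 484.2 CPM under CP1 and at 651.5 and 782.0 CPM in DMSO, with a log2 fold change of -0.46 (SE 0.12, adjusted p = 0.015). The groups did not overlap, but the fall was -0.24 at 2 days and -0.71 at 4 days. On the log2(TPM + 1) scale the call was lost (-0.16, adjusted p = 0.343), as it was without any of 3 CP1 libraries (replicate 2 of 2 days, adjusted p = 0.0573; replicates 1 and 2 of 4 days, 0.0644 and 0.0599).

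Amotl2 encodes an angiomotin-family scaffold that binds YAP and is itself a target. It stood at 827.5, 771.3, 813.6 and 784.3 CPM under CP1 and at 1377 and 1252 CPM in DMSO (log2 fold change -0.69, SE 0.09, adjusted p = 0.00088). Axl, which encodes a receptor tyrosine kinase (mm10 chromosome 7, 25757273-25788705) stood at 675.1 to 723.6 CPM under CP1 and at 1541 and 1226 CPM in DMSO (-0.95, SE 0.11, adjusted p = 0.00044). Ajuba, which encodes a LIM protein that restrains LATS kinases, stood at 85.5 to 100.5 CPM under CP1 and at 185.2 and 158.2 CPM in DMSO (-0.86, SE 0.11, adjusted p = 0.00062). All 3 genes had every CP1 library below both DMSO libraries, which held for 31.5% of all tested genes.

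The TEAD genes and their cofactors were themselves lower or did not pass. Tead4 (ENSMUSG00000030353.15, chromosome 6, 128224288-128300823) stood at 16.6, 17.1, 20.5 and 17.6 CPM under CP1 and at 42.8 and 41.6 CPM in DMSO. Tead4 changed by -1.21 on the log2 scale (SE 0.10, adjusted p = 0.00012), and the WT DMSO libraries stood at 17.4 and 17.9 CPM. Vgll4, the gene of a TEAD-binding protein that competes with YAP, stood at 56.0 to 66.9 CPM under CP1 and at 140.9 and 105.9 CPM in DMSO (-0.99, SE 0.13, adjusted p = 0.00071). All CP1 libraries of both genes were below both DMSO libraries.

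Tead1 and Tead2 fell by less and less firmly. Tead1 stood at 264.4 and 243.6 CPM at 2 days and 199.0 and 200.3 CPM at 4 days of CP1 against 281.1 and 338.5 CPM in DMSO (-0.44, SE 0.14, adjusted p = 0.031). Tead2 stood at 131.2 to 143.2 CPM against 201.1 and 160.9 CPM (-0.37, SE 0.10, adjusted p = 0.017). On the log2(TPM + 1) scale neither was called (adjusted p = 0.502 and 0.498), and both lost the call without single libraries. For Tead1 these were CP1 replicate 2 of 2 days (0.10) and both CP1 replicates of 4 days (0.104 and 0.0983). For Tead2 they were CP1 replicates 1 and 2 of 2 days (0.0592 and 0.0657). Without the DMSO library of 4 days the value of Tead1 was -0.127.

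Genes that did not pass were Tead3 (83.9 to 97.2 CPM against 87.0 and 100.9 CPM), Wwtr1, which encodes TAZ (196.5 to 227.4 against 228.0 and 236.8 CPM), Vgll3, a further TEAD cofactor gene (144.1 to 177.0 against 131.9 and 256.6 CPM), and Yap1. Yap1 stood at 204.0 to 213.0 CPM under CP1, at 317.7 CPM in DMSO at 2 days and at 214.9 CPM in DMSO at 4 days. Its log2 fold change of -0.30 (adjusted p = 0.089) was therefore -0.61 at 2 days and -0.02 at 4 days. Without the DMSO library of 2 days the values of Wwtr1, Tead3 and Vgll3 were -0.25, -0.21 and -0.52. Without that of 4 days Yap1 was at -0.59 and Vgll3 changed sign, to 0.23. These fits hold 1 DMSO library and so no spread between DMSO libraries, and only their effect sizes are given. On the log2(TPM + 1) scale the values of Wwtr1, Tead3 and Vgll3 changed sign without passing (0.14, 0.27 and 0.15). Of the list of 10 TEAD factors and cofactors 8 were tested, 0 were higher and 4 lower, with 2 lower without CP1 replicate 2 of 2 days or on TPM. Against the DMSO library of the same day the list median was -0.35 at 2 days and -0.40 at 4 days.

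**Figure D1:**
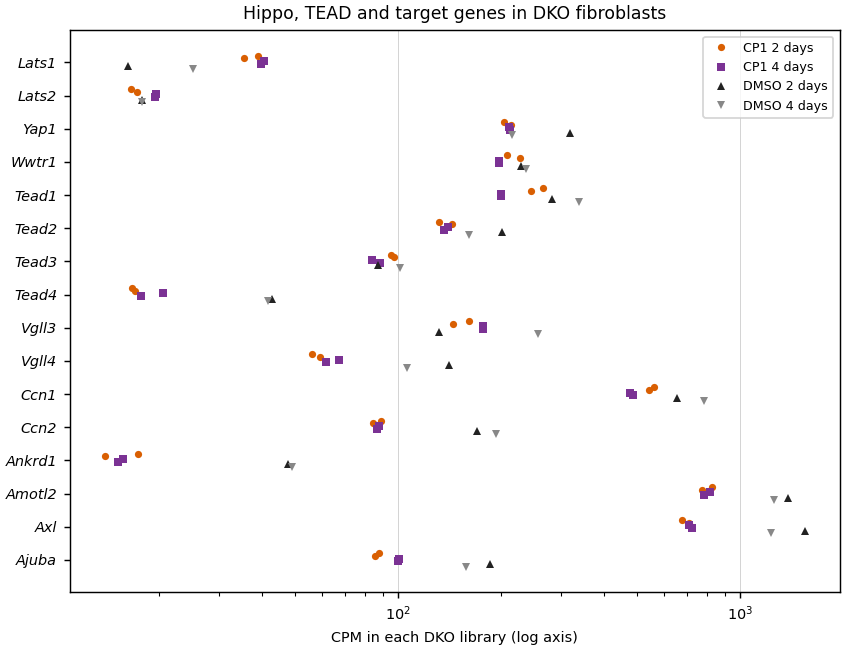
Level of 16 Hippo, TEAD and target genes in each of the 6 DKO libraries, in CPM on a log axis, with circles and squares for CP1 at 2 and 4 days and triangles for DMSO. Ankrd1, Ccn2, Amotl2, Axl, Ajuba, Tead4 and Vgll4 have all 4 CP1 points to the left of both DMSO points, while the DMSO points of Yap1 and Vgll3 lie apart from each other.

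Over a broader list of 32 YAP/TAZ-TEAD targets the fall was partial. Of 31 tested, 13 were lower, 7 higher and 11 not called, with a median log2 fold change of -0.22. Beyond the genes already described, the 13 included Crim1, a membrane protein gene that binds BMPs (206.7 to 232.3 CPM against 416.2 and 362.3 CPM, log2 fold change -0.80, adjusted p = 0.0006). On the log2(TPM + 1) scale the median was 0.08, which is -0.20 relative to the median of all genes, with 9 members higher and 9 lower. Members that rose were the growth factor genes Fgf2 and Ereg, the IGF-binding protein gene Igfbp3, the ectonucleotidase gene Nt5e, the RhoGAP gene Arhgap29, the RNA-binding protein gene Rbms3 and the LIM protein gene Lmcd1. Igfbp3 was at 3.94, 5.92, 9.83 and 11.9 CPM under CP1 and at 0.756 and 0.234 CPM in DMSO (3.92, SE 0.52, adjusted p = 0.0011), far below the 554 to 581 CPM of WT DMSO cells. Without CP1 replicate 1 or 2 of 2 days 4 members were higher, and without a day term 2.

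Hippo components went both ways, with 9 higher and 9 lower of 26, as did all tested genes, with 22.9% higher and 25.3% lower. The KIBRA-family genes Wwc1 and Wwc2, which encode upstream scaffolds, fell with Nf2, the gene of the tumor suppressor Merlin, and with the kinase gene Stk4. Wwc1 stood at 92.4 to 107.3 CPM against 303.9 and 233.8 CPM (log2 fold change -1.41, SE 0.12, adjusted p = 0.00012). The protocadherin gene Fat4 and its ligand gene Dchs1 rose, Fat4 from 83.0 and 64.1 CPM to 146.9 to 215.5 CPM (1.32, adjusted p = 0.0015). Lats1 rose by 0.95 (SE 0.14, adjusted p = 0.0012), from 16.2 and 25.2 CPM to 35.5 to 40.5 CPM, and Lats2 did not pass (0.05, adjusted p = 0.71). The median of the list was -0.05 on counts and 0.21 on TPM, and relative to the median of all genes it was -0.07 and -0.06.

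The 15 largest increases included genes of matrix proteins, secreted ligands, acute-phase proteins and cell surface receptors. By the smaller of its changes at 2 and 4 days, the chemokine gene Cxcl15 (chromosome 5, 90794534-90803067) led. It stood at 66.5, 47.6, 78.7 and 67.3 CPM under CP1 and at 0.233 and 0.175 CPM in DMSO (log2 fold change 8.29, SE 0.30, adjusted p = 4.9e-06). Dcn, the gene of the collagen-binding proteoglycan decorin, stood at 43.4 and 43.0 CPM at 2 days, at 111 and 107 CPM at 4 days and at 1.05 and 1.93 CPM in DMSO (5.66, SE 0.15, adjusted p = 1.4e-06). Both genes were low in both DMSO libraries and far higher in every CP1 library, though the rule of choice required no overlap. The 15 genes chosen in this way had log2 fold changes from 4.18 to 8.29, and their calls were kept in all 16 alternative settings. These settings reuse the libraries by which the genes were chosen as called and largest, so the kept calls are no independent support.

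Col3a1, the gene of the fibrillar collagen of elastic tissues, stood at 614.6, 628.1, 681.4 and 626.7 CPM under CP1 and at 33.2 and 23.7 CPM in DMSO (4.52, SE 0.17, adjusted p = 4.9e-06). On the scale of TPM, where levels of genes can be compared, Col3a1 averaged 236 ± 12.3 TPM under CP1 (SD, n = 4) and Dcn 47.4 ± 23.9 TPM (SD, n = 4). Postn, which encodes the matricellular protein periostin, stood at 594.5, 535.2, 681.3 and 637.6 CPM against 17.04 and 43.9 CPM (4.45, SE 0.30, adjusted p = 0.00014). The collagen-associated genes Col14a1 (4.37), Aspn (5.14) and Abi3bp (4.90) rose in the same way, each without overlap between the groups, as the rule of choice required.

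Igf1, the gene of insulin-like growth factor 1, stood at 82.5, 71.5, 140 and 129.8 CPM under CP1 and at 3.61 and 7.07 CPM in DMSO (4.35, SE 0.13, adjusted p = 3e-06). Enpp2, which encodes autotaxin, the enzyme that makes lysophosphatidic acid, rose from 22.7 and 35.5 CPM to 360.6 and 358.5 CPM at 2 days and 701 and 723.2 CPM at 4 days (4.18, SE 0.13, adjusted p = 3e-06). Angpt1, a ligand gene of the endothelial receptor TIE2, rose by 5.49 (SE 0.31), the ephrin receptor gene Epha3 by 4.22 (SE 0.22) and the neural adhesion gene Chl1 by 4.19 (SE 0.17). Serpina3n, a protease inhibitor gene of the acute-phase response, rose by 6.24 (SE 0.28), Saa3, a serum amyloid gene, by 6.19 (SE 0.35), and Lbp, the gene of the lipopolysaccharide-binding protein, by 4.21 (SE 0.20). The Serpina3 genes are near-identical paralogs between which reads can be split. Further genes had 0 reads in both DMSO libraries, 32 in all. They could pass the filter on low counts only through the CP1 libraries, so that they were called higher is no result of its own. Among these, named after their values were seen, the angiotensin receptor gene Agtr2 was at least 91-fold higher, the proteoglycan gene Kera at least 87.5-fold, the sodium channel gene Scn7a at least 39.7-fold and the fibroblast protease gene Fap at least 15.9-fold higher, each against a floor of 3 counts over the group. These bounds cover counting error only.

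**Figure D2:**
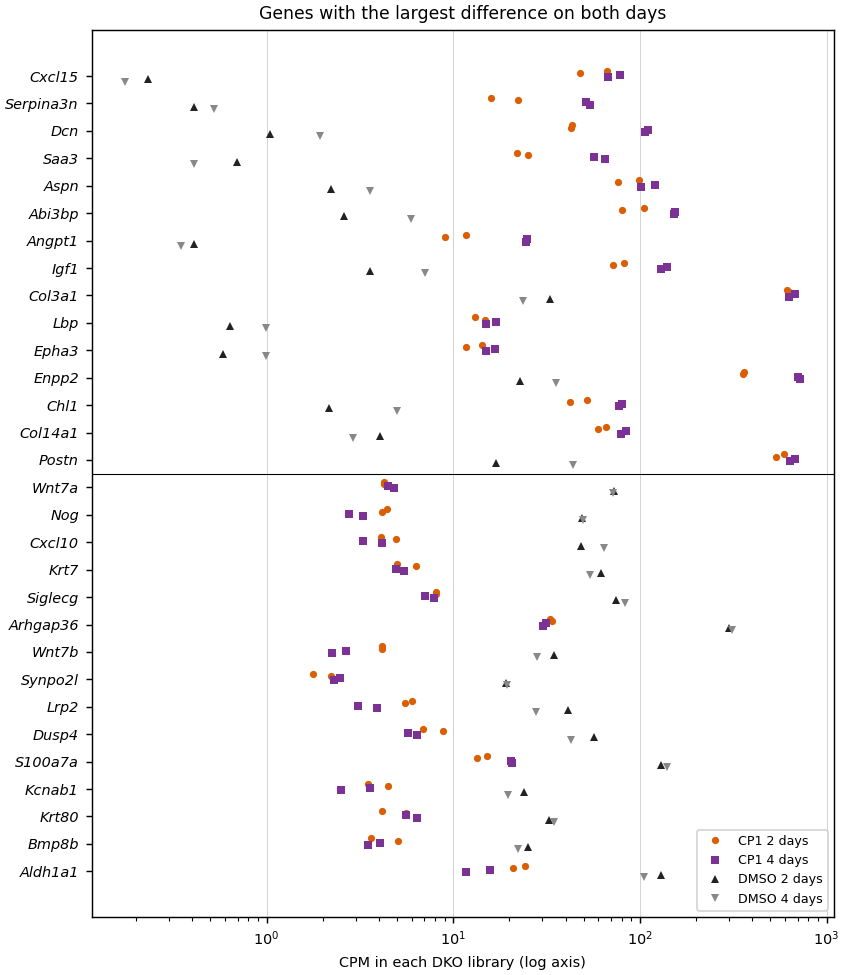
Level of the 15 higher (top) and 15 lower (bottom) genes with the largest change on both days, in CPM on a log axis, in each of the 6 DKO libraries. Every gene has its 4 CP1 points on one side of its 2 DMSO points, as the rule for choosing them required, and Dcn, Serpina3n and Saa3 have higher CP1 points at 4 days than at 2 days.

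Matrix genes rose as a group. Of 39 collagen and matrix genes 25 were higher and 4 lower, with a median of 0.73. The collagen VI genes, whose products form beaded microfibrils, rose together, with Col6a2 at 1144 to 1214 CPM against 279.2 and 265.6 CPM (2.14, SE 0.10, adjusted p = 7.7e-06). Col1a1 and Col1a2, the genes of type I collagen, rose by 0.82 (adjusted p = 0.0094) and 1.09 (adjusted p = 0.0003). Those lower were Col5a2, the crosslinking enzyme gene Loxl4 and the basement membrane genes Col4a1 and Col4a2, of which Col5a2 stood at 1856 to 2168 CPM against 3819 and 3458 CPM (-0.85, adjusted p = 0.00041). Without any 1 of the 4 CP1 libraries, and on TPM, 2 members were lower.

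Small leucine-rich proteoglycans, which coat collagen fibrils, formed a list chosen after values were seen. Of 17 symbols 14 were tested, with 12 higher, 1 lower (Podnl1) and a median of 2.47, also with Kera at its bound. Kera is 1 of the 12 and could pass the filter only through the CP1 libraries. Prelp stood at 63.8 to 91.4 CPM against 10.3 and 10.6 CPM, and Fmod at 77.8 to 95.7 CPM against 14.4 and 15.6 CPM. Of 18 fibroblast markers 16 were tested, 12 were higher and 0 lower (median 0.97, also with Fap at its bound). Fap is 1 of the 12, and with 0 reads in both DMSO libraries its call is no result of its own. Prrx1, a homeobox gene of limb and connective tissue mesenchyme, rose from 203.8 and 238.8 CPM to 703.9 to 886.8 CPM (1.88, SE 0.10, adjusted p = 1.7e-05). Among 25 proteases and inhibitors 10 were higher and 6 lower (2 lower on TPM). The gelatinase gene Mmp2 rose by 2.67 (SE 0.12), while Plaur, the gene of the urokinase receptor, fell by 0.98 (SE 0.08).

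Cadherin genes fell, while integrin and laminin genes went both ways, as all tested genes did. Of 13 cadherin and desmosome genes tested 10 were lower and 1 higher, with a median of -0.88. Cdh2, the gene of N-cadherin, stood at 112.2, 109.6, 128.2 and 127.4 CPM under CP1 and at 556.3 and 437.2 CPM in DMSO (-2.03, SE 0.12, adjusted p = 2.7e-05), and Cdh11, a mesenchymal cadherin gene, was the member that rose (1.06, SE 0.10, adjusted p = 0.00019). The desmosomal plaque gene Pkp2 fell by 2.07 (SE 0.12) on the log2 scale. Of 25 integrin and laminin genes 9 were higher and 7 lower (4 lower without a day term or on TPM). Among all tested genes 22.9% were higher and 25.3% lower, so calls in both directions are no trait of this list. The laminin-binding integrin genes Itga3 (-1.74, SE 0.08) and Itga6 (-1.39, SE 0.08) fell and the laminin chain genes Lama4 (3.37, SE 0.11) and Lamb1 (1.26, SE 0.10) rose.

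Genes of the actin cytoskeleton and of the serum response factor (SRF) program fell almost throughout. Of 26 tested 23 were lower and 2 higher (Filip1l and Lmod1), with a median of -0.90, and on TPM 17 were lower of 25. Zyx, which encodes the focal adhesion protein zyxin, stood at 166.9, 175.1, 129.3 and 137.3 CPM under CP1 and at 554.5 and 704 CPM in DMSO (-2.04, SE 0.15, adjusted p = 6e-05). Acta2, the gene of smooth muscle actin, stood at 394 to 447.3 CPM against 836.6 and 788.5 CPM (-0.89, adjusted p = 0.00033), and Srf itself fell by 0.58 (adjusted p = 0.0035). The LIM genes Fhl1 (-1.51), Fhl2 (-1.19) and Csrp1 (-0.91) fell as well. Each of the lower genes just named had all CP1 libraries below both DMSO libraries. For Zyx, Fhl1, Fhl2 and Csrp1 the rule for naming list genes required this.

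The largest decreases included secreted ligands and antagonists. Wnt7a (chromosome 6, 91363981-91411363), a ligand gene of epithelia, stood at 4.28, 4.25, 4.47 and 4.80 CPM under CP1 and at 72.3 and 71.7 CPM in DMSO (log2 fold change -3.99, SE 0.09, adjusted p = 1.4e-06). Nog, which encodes the BMP antagonist noggin, stood at 4.44, 4.14, 2.76 and 3.30 CPM against 49.0 and 49.8 CPM (-3.75, SE 0.14, adjusted p = 5.6e-06). In both genes the 2 DMSO libraries, which differ elsewhere, were nearly equal. Wnt7b fell by 3.25 (SE 0.14), and of 11 tested Wnt ligand genes 6 were lower and 1 higher. In WT DMSO cells Wnt7a stood at 0.244 and 0.0983 CPM and Wnt7b at 0.0489 and 0 CPM.

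Other genes of this group came from several classes. Arhgap36, the gene of a protein kinase A inhibitor, stood at 30.3 to 34.0 CPM against 299.9 and 311.6 CPM (-3.22, SE 0.08, adjusted p = 1.4e-06). The keratin genes Krt7 (-3.39, SE 0.11) and Krt80 (-2.61, SE 0.14), the sialic acid lectin gene Siglecg (-3.32, SE 0.10), the endocytic receptor gene Lrp2 (-2.89, SE 0.13) and the retinaldehyde dehydrogenase gene Aldh1a1 (-2.70, SE 0.14) fell. So did Dusp4, a phosphatase gene that limits ERK signalling (-2.81, SE 0.12), the actin-binding gene Synpo2l (-3.11, SE 0.15), the psoriasin-family gene S100a7a (-2.95, SE 0.11), the potassium channel subunit gene Kcnab1 (-2.60, SE 0.16) and the ligand gene Bmp8b (-2.52, SE 0.15). The chemokine gene Cxcl10 stood at 4.11, 4.95, 3.30 and 4.13 CPM against 48.7 and 64.1 CPM (-3.75, SE 0.17, adjusted p = 7.4e-06). As for the increases, all 15 decreases kept their calls in all 16 alternative settings, which reuse the libraries by which these genes were chosen.

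Genes of protein synthesis and respiration were lower. Of 30 ribosome biogenesis and MYC target genes 29 were lower and 0 higher, with a median of -0.79 (19 lower on TPM). Odc1, the gene of the first enzyme of polyamine synthesis, stood at 177.1, 189.8, 175.8 and 175.1 CPM under CP1 and at 674.8 and 534.6 CPM in DMSO (-1.72, SE 0.09, adjusted p = 1.6e-05). Of 54 cytosolic ribosomal protein genes 44 were lower and 0 higher (median -0.60, 30 lower on TPM, 3 higher without the DMSO library of 4 days), and Rps2 stood at 2435 to 2835 CPM against 6693 and 6008 CPM. Reads of these genes may be shared with processed pseudogenes. Of 19 translation factor genes, a list chosen after values were seen, 16 were lower and 0 higher. Of 33 nuclear-encoded respiratory chain genes 21 were lower and 1 higher (median -0.41, and 14 lower and 4 higher on TPM), with the complex III gene Uqcrc1 at 148.6 to 158.6 CPM against 335.1 and 314.6 CPM (-1.07, SE 0.08, adjusted p = 5.9e-05). The mitochondrially encoded genes did not share this, with 4 higher and 0 lower of 13 (2 higher without either CP1 library of 4 days, 8 on TPM, and 3 lower without the DMSO library of 4 days).

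DNA replication genes were lower relative to all genes, and the numbers called depended on the scale. Of 34 DNA replication and G1/S genes 21 were lower and 2 higher (median -0.37), but 13 were lower without CP1 replicate 1 of 2 days, and on TPM 6 were lower and 7 higher. Relative to the median of all genes, the list median was -0.38 on counts and -0.35 on TPM. Rrm2, a ribonucleotide reductase subunit gene, stood at 126.5 to 151.2 CPM against 324.9 and 354.4 CPM (-1.25, SE 0.08, adjusted p = 3.2e-05). The cyclin gene Ccnd1 fell by 1.05 (SE 0.11, adjusted p = 0.00027), from 588.3 and 416.7 CPM to 229.3 to 246.4 CPM, and the CDK inhibitor gene Cdkn1b, which encodes p27, rose by 1.02 (SE 0.12, adjusted p = 0.00044), from 52.6 and 62.2 CPM to 106.6 to 128.1 CPM. Neither gene had CP1 libraries within the DMSO range, as the rule for naming list genes required. Of 32 mitosis and G2/M genes 10 were higher and 8 lower (1 lower on TPM, 5 lower without either CP1 library of 2 days and 2 higher without a day term). Their median was 0.002, against 0.015 for all tested genes, of which 22.9% were higher and 25.3% lower. The mitosis list is therefore not read as a result of its own.

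**Figure D3:**
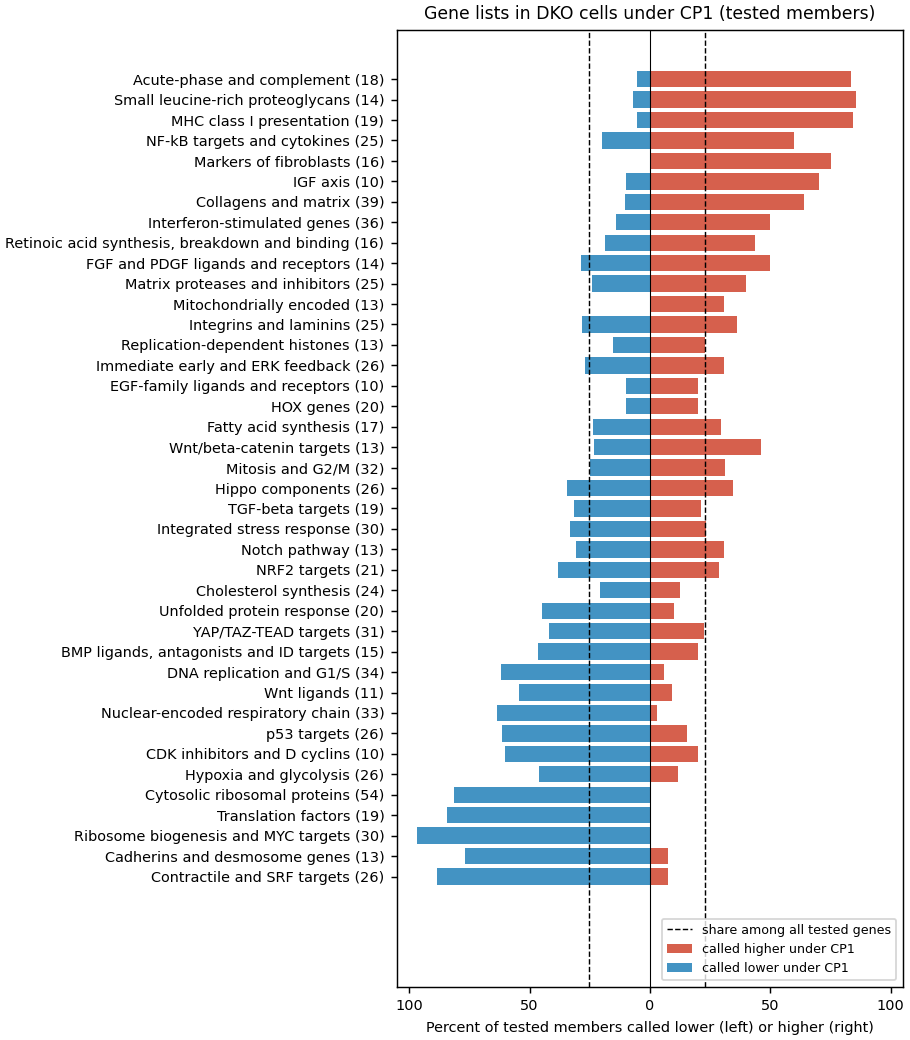
Percent of the tested members of each list called higher (right) and lower (left) under CP1 in DKO cells, with the number tested in brackets and dashed lines at the shares among all tested genes, 22.9% and 25.3%. Acute-phase, proteoglycan, MHC, fibroblast and collagen lists extend past the right line and ribosomal, translation, cadherin and contractile lists past the left line, while many lists stay near both.

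Inflammatory and antigen presentation genes rose, most of them from low levels. Of 25 NF-kB targets and cytokines tested 15 were higher and 5 lower (median 1.08). Lcn2, the gene of the iron-scavenging lipocalin 2, stood at 157.1, 173.9, 230.1 and 263.6 CPM under CP1 and at 22.6 and 23.6 CPM in DMSO (3.15, SE 0.15, adjusted p = 1e-05). The chemokine gene Cxcl5 rose from 47.2 and 56.1 CPM to 204.3 to 350.8 CPM, and the chemokine gene Ccl7 rose by 2.02 (SE 0.13). Of 18 tested acute-phase and complement genes, a list chosen after values were seen, 15 were higher and 1 (Serping1) lower, with a median of 3.36, or 2.98 with 2 genes at their bounds. These 2 had 0 reads in both DMSO libraries, so their calls are no result of their own. The complement gene C1s1 rose from 28.3 and 30.7 CPM to 187.9 to 250.2 CPM.

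Of 19 tested MHC class I presentation genes, also a list chosen after values were seen, 16 were higher and 1 (Psmb10) lower, with a median of 1.53. B2m, the gene of the light chain of all class I molecules, stood at 991.1, 1073, 935.2 and 945.8 CPM under CP1 and at 274.8 and 446.7 CPM in DMSO (1.49, adjusted p = 0.0008). The heavy chain genes H2-K1 and H2-D1 rose by 2.26 and 2.21, although their sequences are alike enough for reads to be split among them. Of 36 tested interferon-stimulated genes 18 were higher and 5 lower (median 0.47). The 5 were Cxcl10, Isg15, Oasl1, Ifit1 and Ifih1, and Isg15, the gene of a ubiquitin-like antiviral protein, stood at 14.3 to 20.2 CPM against 47.1 and 45.3 CPM (-1.46, SE 0.12, adjusted p = 9e-05). Ifi27l2a went the other way, from 4.94 and 4.61 CPM to 24.96 to 39.3 CPM (2.66, SE 0.16, adjusted p = 3.2e-05). With WT libraries in the fit 11 interferon genes were higher with a day term per genotype and 23 with group means.

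Growth factor axes also differed by member. Of 10 IGF axis genes 7 were higher and 1 lower (median 0.91), with Igfbp4 at 11.8 to 17.1 CPM against 7.27 and 6.95 CPM. Of 14 FGF and PDGF ligand and receptor genes tested 7 were higher and 4 lower, and 4 were higher without CP1 replicate 1 of 2 days or either CP1 replicate of 4 days. Without the DMSO library of 4 days 2 were lower. The ligand genes Pdgfb (-1.40, SE 0.11) and Pdgfa (-0.77, SE 0.08) fell, while Fgf7, which encodes keratinocyte growth factor, rose by 1.27 (SE 0.11). Egfr rose by 1.46 (SE 0.15), from 14.4 and 12.5 CPM to 31.1 to 43.0 CPM, and its ligand gene Hbegf fell by 1.08 (SE 0.16). Of 15 BMP ligand, antagonist and ID target genes 7 were lower and 3 higher, and of 19 TGF-beta targets 6 were lower and 4 higher, among them the inhibitory Smad genes Smad7 (-0.89, SE 0.10) and Smad6 (-0.73, SE 0.09). The medians of both lists changed sign between scales, from -0.23 on counts to 0.05 on TPM for the BMP list and from -0.06 to 0.23 for the TGF-beta list.

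Each day was then tested against its own DMSO library, with all 12 libraries sharing 1 estimate of the spread, so the spread of the single DMSO library of a day is borrowed from groups with repeats. At 2 days 4496 of 16595 genes (27.1%) were higher and 4835 (29.1%) lower, together 56.2%, and at 4 days 3625 (21.8%) were higher and 4446 (26.8%) lower, together 48.6%. These comparisons use different libraries. Of 9178 genes called at 2 days 87% had the same direction at 4 days, and of 7945 called at 4 days 89% had the same direction at 2 days, with 5943 called alike on both days and 358 called in opposite directions. YAP/TAZ-TEAD targets had 8 higher and 17 lower at 2 days and 7 higher and 18 lower at 4 days, and contractile genes had 23 and 22 lower.

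**Figure D4:**
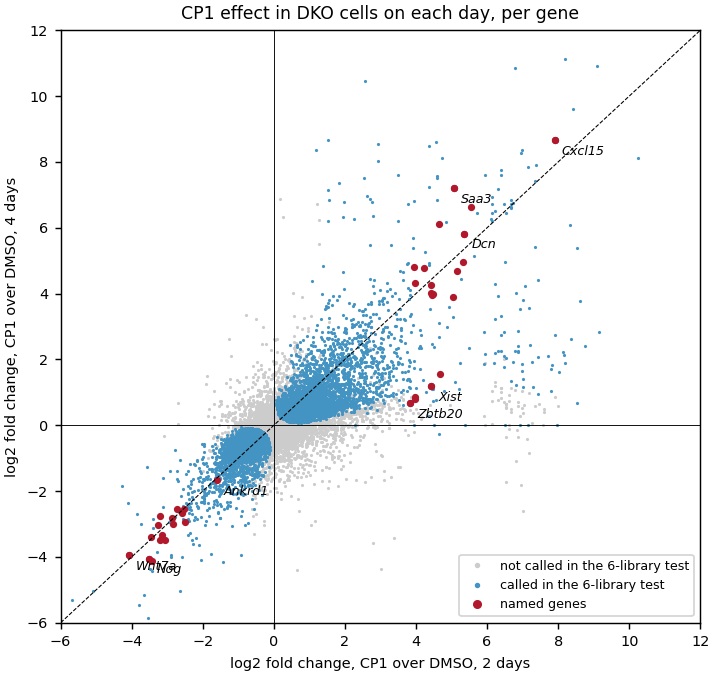
Log2 fold change of CP1 over DMSO in DKO cells at 2 days (horizontal axis) and at 4 days (vertical axis), per gene of the 6-library test, with named genes in red and the line of equal change dashed. Wnt7a, Nog, Ankrd1, Dcn and Cxcl15 lie near the line, and a group of genes with Xist and Zbtb20 lies far to its right.

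The size of the change differed between days for 4547 genes (27.4%), 2285 (13.8%) with a higher value at 4 days and 2262 (13.6%) with a lower one, a difference that rests on 1 DMSO library per day. Rspo2, the gene of a Wnt-enhancing R-spondin, was among those with a larger rise at 4 days, standing at 27.3 and 25.01 CPM at 2 days and 74.4 and 71.9 CPM at 4 days of CP1 against 8.90 and 7.71 CPM in DMSO (difference of log2 effects 1.69, adjusted p = 1.5e-08). For Rspo2 the CP1 libraries changed and the DMSO libraries were alike. The opposite held for the genes with the lowest differences, Xist (-3.25), Zbtb20 (-3.17), Myo9a (-3.16), Rev3l (-3.12) and Kdm7a (-3.10). Zbtb20, a zinc finger repressor gene, stood at 61.9 to 77.0 CPM in all 4 CP1 libraries, at 39.3 CPM in DMSO at 4 days and at 4.83 CPM in DMSO at 2 days, and the other 4 genes were likewise low in the DMSO library of 2 days. Among the Hippo and TEAD genes the difference passed in the upward direction for Yap1 (0.59), Vgll4 (0.57), Ajuba (0.44), Axl (0.38) and Tead2 (0.33), and in the downward direction for Vgll3 (-0.75), Tead1 (-0.62), Lats1 (-0.52), Ccn1 (-0.46) and Tead3 (-0.37).

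CP1 libraries of 4 days were also compared with those of 2 days directly, which needs no DMSO library. Here 2013 genes (12.1%) were higher and 1999 (12%) lower at 4 days, together 24.2%, and 2206 in all without CP1 replicate 1 of 4 days. Against DMSO, 12 of 26 hypoxia and glycolysis genes were lower and 3 higher over both days. Their median log2 fold change was -0.20 at 2 days and -1.06 at 4 days, each against the 1 DMSO library of that day. Over both days 4 were lower without a day term and 7 on TPM. The enolase gene Eno1 stood at 1164 and 1396 CPM at 2 days and at 810 and 797.7 CPM at 4 days of CP1, against 2525 and 2152 CPM in DMSO. Every CP1 library of Eno1 was below both DMSO libraries, as the rule for naming list genes required, and those of 4 days were the lowest.

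The effect of CP1 in DKO cells was set against that in WT cells of the same study, measured in other libraries. In WT cells 1244 of 16595 genes (7.5%) were higher and 1710 (10.3%) lower, and the effect differed between the genotypes for 7040 genes (42.4%), 3342 (20.1%) with a higher and 3698 (22.3%) with a lower value in DKO cells. Ankrd1 had a log2 fold change of -1.45 in WT cells, from levels of 0.831 and 1.62 CPM, and the difference from DKO cells did not pass (-0.19, SE 0.39, adjusted p = 0.73). Axl fell in both genotypes and by more in DKO cells (-0.61 in WT, difference -0.36, SE 0.12, adjusted p = 0.03), as did Amotl2 (difference -0.28, SE 0.10, adjusted p = 0.038) and Ccn2 (-0.54, SE 0.16, adjusted p = 0.017). Tead4 and Vgll4 did not pass in WT cells and differed from them (-0.95 and -0.70, adjusted p = 0.00019 and 0.0032). YAP/TAZ-TEAD targets had 14 lower and 1 higher of 32 in WT cells.

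Several gene groups differed between the genotypes. In WT cells 39 of 40 interferon-stimulated genes were lower (median -3.25) against 5 of 36 in DKO cells, and the effect had a higher value in DKO cells for 34 of the 36. Isg15 stood at 888 and 894 CPM in WT DMSO cells and at 45.3 and 47.1 CPM in DKO DMSO cells, so the genotypes started from different levels. MHC class I genes had 19 lower of 20 in WT cells, and all 19 tested differed, with higher values in DKO cells. Contractile genes had 7 higher and 1 lower of 26 in WT cells, and 23 differed with lower values in DKO cells. Acta2 rose by 0.84 in WT cells and fell in DKO cells, a difference of -1.76 (adjusted p = 3.3e-07). Collagen and matrix genes had 2 higher and 20 lower of 39 in WT cells, and ribosomal protein genes had 0 called among 54 (the respective differences had higher values in DKO cells for 30 of 39 and lower ones for 44 of 54).

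Among the 15 genes with the largest increases in DKO cells, 3 were higher, 7 lower and 5 not called in WT cells, where log2 fold changes ran from -1.50 to 1.30. All 15 stood lower in DKO than in WT DMSO cells, and after CP1 12 of them remained below the WT DMSO level, among them Dcn, at 947 and 959 CPM in WT DMSO. Among the 15 largest decreases 1 was higher, 7 lower and 7 not called in WT cells, and 14 stood higher in DKO than in WT DMSO cells. These levels share the DKO DMSO libraries with the changes and are given as values side by side. By the difference itself the genes with the highest values were Cxcl15 (9.77, SE 0.46), Saa3 (6.76), Serpina3n (6.64), Aspn (6.53) and the collagenase gene Mmp13 (6.47), and those with the lowest Synpo2l (-4.78), Wnt7b (-3.95), Aldh1a7 (-3.85), Wnt7a (-3.61) and the carboxylesterase gene Ces2e (-3.52). Mmp13 stood at 18.4, 51.3, 12.3 and 13.3 CPM under CP1 in DKO cells, so 1 library was far above the others. Its rise in DKO cells was not called without CP1 replicate 1 or 2 of 4 days (adjusted p = 0.0683 and 0.0825, edgeR). It was also not called with no filter on low counts (0.221). The log2 fold change was 1.428 without the DMSO library of 2 days and 3.785 without that of 4 days.

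**Figure D5:**
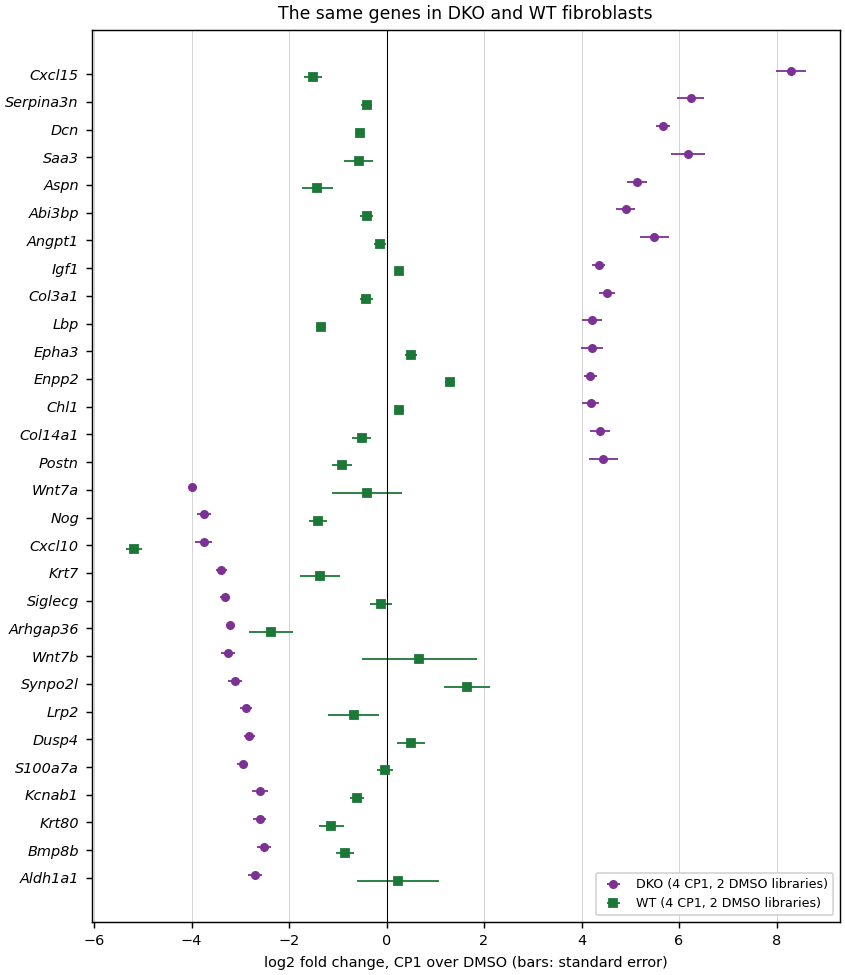
Log2 fold change of CP1 over DMSO with its standard error for the 15 higher and 15 lower genes chosen in DKO cells (circles) beside the same genes in WT cells (squares). The WT values of the higher genes lie between -1.50 and 1.30, and Cxcl10 and Arhgap36 have the lowest WT values of all.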

How the data were processed

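Total RNA of DKO and WT fibroblasts was sequenced in 12 libraries. The count table holds whole-number read counts per gene made by the authors with featureCounts 1.5.2 on mm10, per the submitters' processing notes. The aligner and the strand setting are not given in the sources used here, so a gene and an antisense or overlapping partner cannot be told apart. A deposited TPM column set accompanies the counts, and TPM recomputed from the deposited counts and gene lengths differed from it by at most 1.14e-09. Both tables are the authors' own, with 32168 genes.

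Counts were tested in R 4.3.3 with edgeR 4.0.16 (TMM scaling, quasi-likelihood F-test, Benjamini-Hochberg adjustment, threshold 0.05). The edgeR expression filter (minimum count 10, minimum total 15) left 14839 genes for the 6 DKO libraries (17329 removed) and 16595 for all 12. The model of the 6 libraries had treatment and day, with 3 residual degrees of freedom. The days were tested in a fit of 8 group means over all 12 libraries, and the genotypes in a fit with a day term per genotype. CPM values use TMM-scaled totals of all 12 libraries. A size factor scaling, DESeq2 1.42.0, limma 3.58.1 on log2(TPM + 1) and log2(TPM + 0.1), other filters, other sample sets and leaving out each library were alternatives. Scripts were tested on simulated data.

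The members and gene lists were chosen with earlier results of these data known. Genes were named by a rule. A set of 16 Hippo, TEAD and target genes was fixed. In each direction 15 genes were taken whose smaller change over both days was greatest (called, mean log2 CPM of at least 2, no overlap between groups). From each list up to 4 called genes without overlap between groups were taken by smallest p. Each difference of effects gave 5 genes in each direction. Of 51 lists, 6 (proteoglycans, MHC class I, acute-phase, retinoic acid, keratins and translation factors) were added after values were seen. The following genes fall outside the rule and were named after their values were seen: Acta2, Srf, Filip1l, Lmod1, Col1a1, Col1a2, Col4a1, Col4a2, Col5a2, Loxl4, Prelp, Fmod, Podnl1, Kera, Agtr2, Scn7a, Fap, Thy1, B2m, H2-D1, H2-K1, Psmb10, C1s1, Serping1, Fat4, Dchs1, Nf2, Stk4, Ifit1, Ifih1, Fgf2, Ereg, Nt5e, Arhgap29, Rbms3, Lmcd1, Pdgfd and Hoxd11. Promoter windows of Ccn2, Tead1 and Tead4 were not used here. The result for 1 gene is not reported here.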

Additional observations from a re-analysis of the deposited data

Results flagged for a closer look

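The CP1 effect in DKO cells differed between 4 and 2 days for 4547 genes, by the edgeR test of the difference itself. This test sets CP1 libraries against 1 DMSO library per day, and that of 2 days stood apart from the others. Among the genes followed throughout, the difference (effect at 4 days minus effect at 2 days, log2) passed for Lats1 at -0.52, Yap1 at 0.59, Tead1 at -0.62, Tead2 at 0.33, Tead3 at -0.37, Vgll3 at -0.75, Vgll4 at 0.57, Ccn1 at -0.46, Axl at 0.38 and Ajuba at 0.44. The highest differences among expressed genes were those of the serum amyloid gene Saa3 (2.13), the protease inhibitor gene Serpina3f (2.02), the nucleotidyltransferase gene Tent5c (1.84), Rspo2 (1.69) and the small GTPase gene Rasl11a (1.38). The lowest were those of Xist (-3.25), Zbtb20 (-3.17), the unconventional myosin gene Myo9a (-3.16), the DNA polymerase zeta gene Rev3l (-3.12) and the histone demethylase gene Kdm7a (-3.10). Myo9a stood at 92.8 to 119.7 CPM under CP1, at 65.6 CPM in DMSO at 4 days and at 6.34 CPM in DMSO at 2 days, and Rev3l at 78.7 to 105.1, 34.9 and 3.20 CPM.

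The CP1 effect differed between DKO and WT cells for 7040 genes by the test of the difference. Among the genes followed throughout, the difference (DKO minus WT, log2) passed for Lats1 at 1.10, Tead1 at -0.60, Tead2 at -0.41, Tead4 at -0.95, Vgll4 at -0.70, Ccn1 at -0.58, Ccn2 at -0.54, Amotl2 at -0.28, Axl at -0.36 and Ajuba at -0.58. The highest differences were those of Cxcl15 (9.77), Saa3 (6.76), Serpina3n (6.64), Aspn (6.53) and Mmp13 (6.47), and the lowest those of Synpo2l (-4.78), Wnt7b (-3.95), Aldh1a7 (-3.85), Wnt7a (-3.61) and Ces2e (-3.52). The retinaldehyde dehydrogenase gene Aldh1a7 stood at 68.0 and 70.3 CPM in DKO DMSO cells and at 0.0977 and 0.148 CPM in WT DMSO cells. No group had enough libraries for a check of single libraries within it.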

How the results depend on the processing

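The 6-library comparison called 7145 genes and between 5955 (no day term) and 10388 (12 libraries, 8 group means) under the other models, filters, scalings and DESeq2. TPM gave 6853 and 6939 calls with pseudocounts of 1 and 0.1, of which 76.4% and 77.2% were higher, against 47.5% on counts. The median of all genes was 0.27 and 0.31 on TPM and 0.21 with no filter on low counts, against 0.01, and the cause was not tested. In the scaling of all 12 libraries, TMM factors were 0.868 and 0.924 in DKO DMSO and 1.034 to 1.061 in DKO CP1 libraries. The TPM fits applied no such factor. No value called in its comparison changed sign, but values that had not passed did. Vgll3 (-0.16) became 0.23 without the DMSO library of 4 days and ran from -0.52 to 0.23 over the libraries left out. On TPM with pseudocounts of 1 and 0.1 the values became 0.144 and 0.145 for Wwtr1, 0.267 and 0.273 for Tead3 and 0.146 and 0.148 for Vgll3, and Tead3 was 0.004 at a mean of at least 1 CPM. Yap1 at 4 days was 0 in the 6 DKO libraries alone. Leaving out 1 library gave -0.211 to 0.166 for Tead3, -0.059 to 0.147 for Lats2, -0.111 to 1.726 for Tent5c, -0.362 to 1.018 for Rasl11a and -0.289 to 0.017 for Tent5c at 2 days. The difference between days was -0.216 to 0.109 for Ankrd1, and that between genotypes -0.812 to 0.28 for Ankrd1, -0.424 to 0.168 for Yap1, -0.194 to 0.003 for Wwtr1, -0.313 to 0.057 for Tead3 and -0.237 to 0.505 for Vgll3. The cause of these sign changes was not tested. Leaving out 1 library gave 5417 to 8875 calls for CP1 against DMSO, 8975 to 9342 at 2 days, 7010 to 8621 at 4 days, 2206 to 4403 for CP1 at 4 against 2 days (main 4012; the lowest without CP1 replicate 1 of 4 days), 3878 to 5118 for the difference between days and 5150 to 8335 for that between genotypes. The fits at single days then assume that a lone library varies like the other groups. The 6-library fit without 1 DMSO library holds no spread between DMSO libraries, so its number of calls does not measure that spread. Of 185 named genes called, 16 lost the call on log2(TPM + 1), 2 with DESeq2 and 5 to 11 without single libraries. For CP1 at 4 against 2 days the fit with the replicate number as a block called 4414 genes, 3957 of them called without it. The deviations of repeat 1 at both days had a correlation of 0.018 over 14839 genes, so the numbers do not pair the libraries. No other comparison could carry a block, since each DMSO group holds 1 library. At 17 to 23 reads per CPM, values below 1 CPM rest on few reads.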

Other observations

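Genes of the aryl hydrocarbon receptor, a ligand-activated transcription factor that responds to xenobiotics, rose in DKO cells. Of 7 tested members 5 were higher and 0 lower, with a median of 1.62. The receptor gene Ahr stood at 145.2, 135.7, 145 and 137.3 CPM under CP1 and at 42.7 and 50.9 CPM in DMSO (log2 fold change 1.62, adjusted p = 3.3e-05, edgeR), while in WT cells it fell by 0.82 on the log2 scale. The target gene Cyp1b1, which encodes a cytochrome P450, stood at 2.31 to 5.65 CPM against 0.174 and 0.117 CPM. Every CP1 library of both genes was above both DMSO libraries, as the rule for naming list genes required.

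Further lists were lower or went both ways, as all tested genes did, with 22.9% higher and 25.3% lower. Of 26 p53 targets 16 were lower and 4 higher (9 lower on TPM), of 10 CDK inhibitor and D cyclin genes 6 were lower and 2 higher (3 lower on TPM), and of 20 unfolded protein response genes 9 were lower and 2 higher (4 lower and 5 higher on TPM, where the median went from -0.20 to 0.10). Of 13 Wnt target genes 6 were higher and 3 lower (1 lower on TPM or without CP1 replicate 1 of 2 days or either CP1 library of 4 days), with Nkd1, the gene of a Wnt antagonist, higher by 2.44 and Ccnd1 lower. Counts of higher and lower genes were 3 and 5 of 24 for cholesterol synthesis (11 lower without the DMSO library of 2 days, 8 higher without that of 4 days, 1 higher without either CP1 library of 2 days or CP1 replicate 1 of 4 days, and 3 lower without CP1 replicate 2 of either day) and 5 and 4 of 17 for fatty acid synthesis (8 and 7 without the DMSO library of 4 days). They were 7 and 10 of 30 for the integrated stress response (5 or 6 lower without CP1 replicate 1 or 2 of 2 days or replicate 2 of 4 days, 11 higher without the DMSO library of 4 days), 6 and 8 of 21 for NRF2 targets and 8 and 7 of 26 for immediate early genes (4 lower without CP1 replicate 1 of 4 days). On TPM the higher and lower counts were 9 and 1 for cholesterol synthesis, 8 and 3 for fatty acid synthesis, 8 and 4 for NRF2 targets and 11 and 4 for immediate early genes, while of the integrated stress response genes 10 were higher and 2 lower. Cholesterol synthesis genes had a median of -0.14 on counts and 0.15 on TPM, integrated stress response genes had -0.07 and 0.22, NRF2 targets -0.13 and 0.16 and Notch pathway genes -0.11 and 0.12, and relative to all genes these 4 medians were below 0 on both scales. Counts were also 2 and 1 of 10 for the EGF family (4 and 1 of 8 on TPM), 4 and 4 of 13 for the Notch pathway, 4 and 2 of 20 for HOX genes (9 and 0 on TPM, 2 and 1 without CP1 replicate 1 of 2 days, 3 and 0 without replicate 2), 7 and 3 of 16 for retinoic acid genes (4 higher without either CP1 library of 4 days), 0 and 3 of 6 for keratins and 3 and 2 of 13 for replication-dependent histones, whose near-identical copies can split reads. Marker lists had 4 and 2 of 7 for adipocytes, 2 and 2 of 10 for cartilage and bone, 1 and 0 of 4 for muscle (median -0.14 on counts and 0.09 on TPM), 1 and 1 of 4 for macrophages, 1 and 1 of 4 for endothelium, 1 and 2 of 4 for epithelium and 2 and 1 of 7 for neural cells, and 0 erythroid markers were tested. Some of these results depended on the DMSO library. In the fit of all 12 libraries the median of 8 keratins was 0.17 at 2 days and -2.96 at 4 days. That of 5 epithelial markers was 2.70 and -1.21, that of 7 endothelial markers -0.02 and 0.61 and that of 8 neural markers -0.28 and -0.15.

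The growth factor gene Pdgfd and the homeobox gene Hoxd11 had 0 reads in all 6 DKO libraries, against 872 to 1030 and 609 to 861 reads in WT libraries.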
